A study of Mus musculus with 10 samples.

Results

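The spots described here were the macrophage-rich spots of MYC-driven mouse liver tumours and of mouse livers, chosen by their content of complement C1q transcripts. In each section, UMIs (unique molecular identifiers, each standing for 1 captured RNA molecule) of C1qa, C1qb and C1qc were summed and expressed per 10000 UMIs of the spot. Spots at or above the 90th percentile of their section were called C1q-high and spots at or below the median C1q-low. This gave 3417 C1q-high spots of 34133 tissue spots, 2605 of them in tumour sections and 812 in liver sections, set against 17070 C1q-low spots. The C1q values therefore defined the spots and were described without a test, and every other gene was compared between the sides after its UMIs were summed per tissue.

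The series held 10 Visium sections of 7 frozen mouse tissues, cut at 10 µm and stained with haematoxylin and eosin. The tumours NEJ146, NEJ634, NEJ723 and NEJ687 came from ABC-Myc mice, in which Cre recombinase under the albumin promoter removes a stop cassette and switches on a human MYC transgene in hepatocytes of the C57BL/6J background. NEJ638, NEJ654 and NEJ677 were taken as the healthy livers because the study named the tumours and the sample labels, which call every sample hepatoblastoma, did not separate the groups. NEJ146 was represented by 4 adjacent sections and counted as 1 tissue, and each other tissue had 1 section. All 7 tissues shared 1 estimate of the spread per gene. The p-values and SEs of tumours and of livers therefore rest on the 4 tumours and 3 livers together. Age and sex of these animals were not among the labels used here, and transcripts of the human MYC transgene had no entry among the counted genes. Afp, the fetal liver protein made by hepatoblastoma cells, lay between 1696 and 4625 CPM (UMIs per 1000000 UMIs of a library) in the tumours and between 3.11 and 10.4 CPM in the livers, over both kinds of spot. NEJ146 was also labelled as total RNA, the others as polyadenylated RNA.

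C1q is the recognition subunit of the classical complement pathway, and in liver its 3 chains are made mainly by macrophages. The resident macrophages of the liver, Kupffer cells, line the sinusoids, where they take up particles, microbes and worn-out red cells, and are recognised in the mouse by Clec4f, Timd4, Vsig4 and Cd5l. Monocyte-derived macrophages that enter injured or tumour tissue lack several of these genes at first and carry others, such as Ccr2, Trem2 and Gpnmb. A Visium spot covers several cells, so a gene that was higher in C1q-high spots may come from the macrophages or from any neighbour under the same spot, and more cells of a type could not be told apart from more RNA per cell.

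The share of C1q was higher in tumour than in liver sections over all tissue spots. It was 6.84, 6.96, 6.64 and 5.22 UMIs per 10000 in the NEJ146 sections, 6.002 in NEJ634, 8.58 in NEJ687 and 4.73 in NEJ723. In the livers it was 1.83 in NEJ638, 2.92 in NEJ654 and 2.62 in NEJ677, so the tissues did not overlap. C1q-high spots held 9.71 to 17.5 C1q UMIs per 10000 in tumours and 4.94 to 7.11 in livers. The lowest C1q-high spot stood at 3.91 per 10000 in NEJ638 and at 14.1 in NEJ687, and the next spot outside had the same value to 3 digits in each. The choice rested on few molecules in the livers, where the median C1q-high spot held 5 to 9.5 C1q UMIs against 18 to 36 in the tumours, and spots without any C1q UMI made up 5.98 to 13.9% of liver spots and 0.0410 to 1.89% of tumour spots.

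Part of the C1q difference between the sides was created by the choice itself. When spots were chosen on C1qa alone, the held-out C1qb and C1qc together were 1.69 to 2.38 times higher in the chosen spots of tumours and 1.56 to 2.09 times higher in those of livers. In the tumours C1q-high spots also lay next to each other more often than their 10% share of all tissue spots, and in the livers the excess was small. Of the tissue spots adjacent to a C1q-high spot, 23.5 to 24.5% were C1q-high in the NEJ146 sections, 17.5% in NEJ634, 19.1% in NEJ687 and 15.1% in NEJ723. In livers this share was 11.1% in NEJ638, 12.9% in NEJ654 and 13.5% in NEJ677. Around C1q-low spots, 5.50 to 7.85% of neighbours were C1q-high in tumours and 8.75 to 9.46% in livers. Spots outside the tissue outline still carried 3.78 to 7.62 C1q UMIs per 10000 in NEJ634, NEJ723 and NEJ687 and 1.76 to 2.70 in the livers. NEJ146 had no outline, and its tissue spots, taken by a UMI minimum, may include spots off the tissue. The median C1q-low spot held 1 to 3 C1q UMIs in livers and 5 to 11 in tumours. How far these low counts in livers, and RNA outside the outline, shaped the shares of neighbours was not tested.

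**Figure D1:**
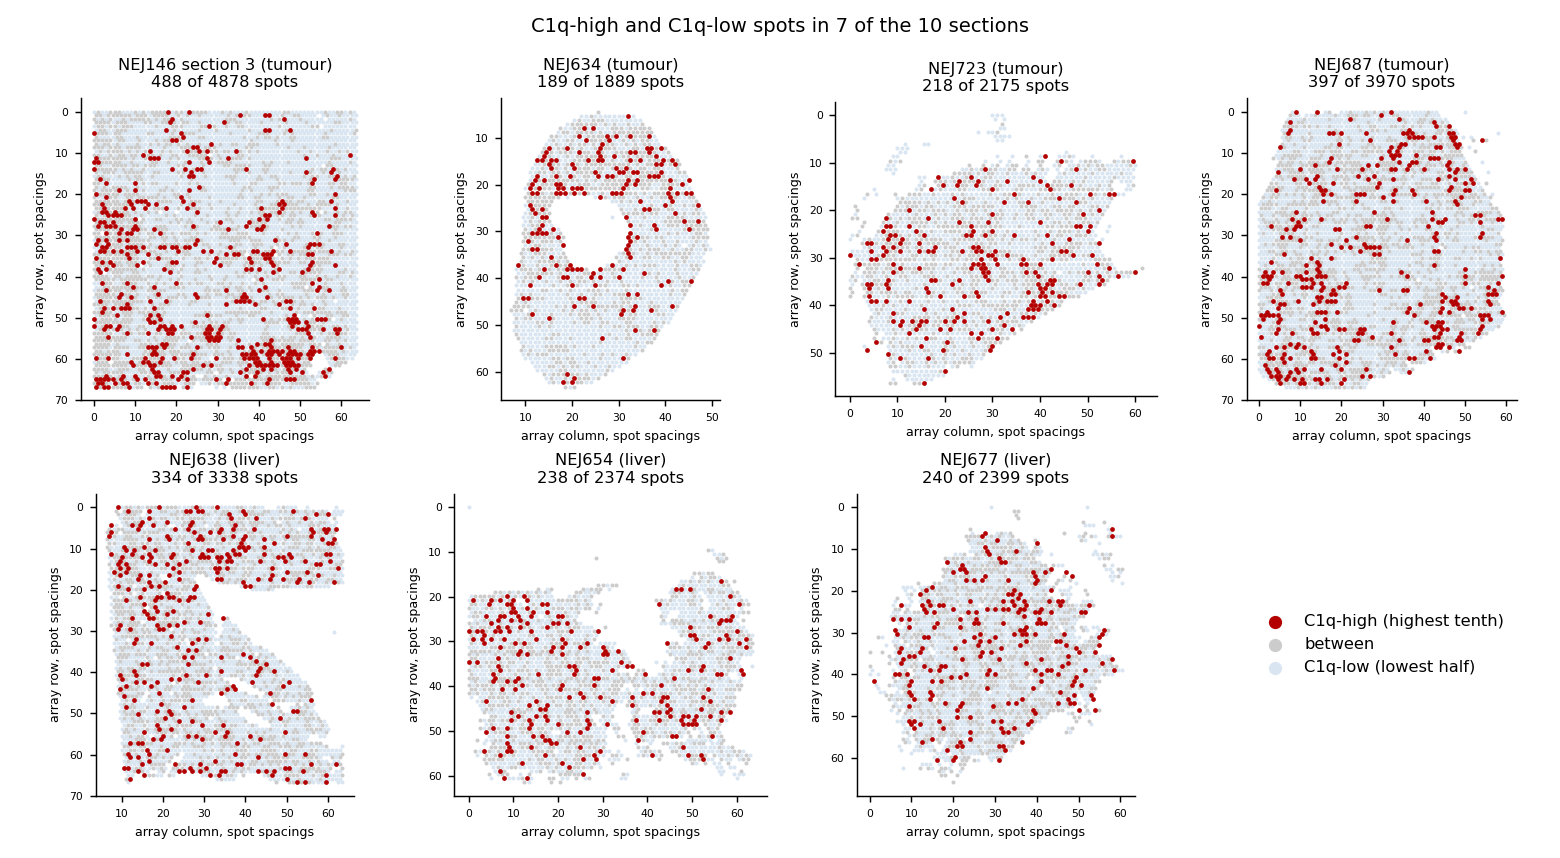
Maps of the tissue spots in 7 of the 10 sections, with array column and row in spot spacings. Red points are C1q-high, pale blue points C1q-low and grey points the spots between; in NEJ146 section 3 the 488 red points of 4878 spots formed patches, whereas the 238 red points of 2374 in NEJ654 were spread over the section.

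The summed libraries ranged from 3542492 to 36082373 UMIs for C1q-high spots and from 19093555 to 199988001 for C1q-low spots, NEJ146 being the deepest. C1q-high spots had a median UMI total 0.850 to 1.06 times that of C1q-low spots in tumours and 0.805 to 0.913 times in livers. Their mitochondrial share was 2.86 to 6.50% in tumours and 1.99 to 2.75% in livers, beside 2.84 to 7.33% and 2.60 to 3.001% in C1q-low spots.

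The first question was which genes accompanied C1q in tumours and in livers, and whether the gene sets differed. With edgeR's quasi-likelihood test over 11700 genes, 968 genes (8.27% of those tested) were higher in C1q-high spots of the 4 tumours and 924 (7.9%) were lower at a Benjamini-Hochberg adjusted p of 0.05. In the 3 livers 103 genes (0.88%) were higher and 169 (1.44%) lower. Of the genes that rose, 101 were shared, which is 98.1% of the liver genes and 10.4% of the tumour genes. The other 2 liver genes had a positive log2 fold change in tumours too, and 555 of the 867 genes called in tumours alone had a positive log2 fold change in livers. The lists were of unequal size, and an absence from the liver list does not show that a gene differed between the tissues. That was tested directly as the difference of the log2 fold changes. It was larger in tumours for 60 genes (0.513%) and larger in livers for 1 gene, Cyp2a4 (0.00855%), whose call was lost without NEJ146, whereas 1255 genes had an unadjusted p under 0.05. With so few calls, a list with none in the difference is not shown to change alike in tumours and livers.

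The counts of genes that rose were steadier than the counts that fell. Under TMM scaling the median log2 fold change of all tested genes was −0.08 in tumours and −0.11 in livers, and without TMM it was 0.03 in each. Of the called genes, 51.2% were higher in tumours and 37.9% in livers. These splits became 94.4% and 81.4% without TMM and 88.8% and 82.5% with DESeq2. The liver count and the difference also depended on single tissues. Without NEJ677 26 genes rose in the livers, without NEJ654 30 and without NEJ638 62. The 60 genes of the difference became 2 without NEJ723, 4 without NEJ654, 8 without NEJ677, 12 without NEJ634, 21 without NEJ638, 34 without NEJ687 and 110 without NEJ146. The 1 gene on the liver side became 13 without NEJ634 and 54 without NEJ146. The median difference of all tested genes was 0.05, and it was −0.10 without NEJ634 and −0.06 without NEJ146. The larger count on the tumour side therefore depended on the tissues included.

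**Figure D2:**
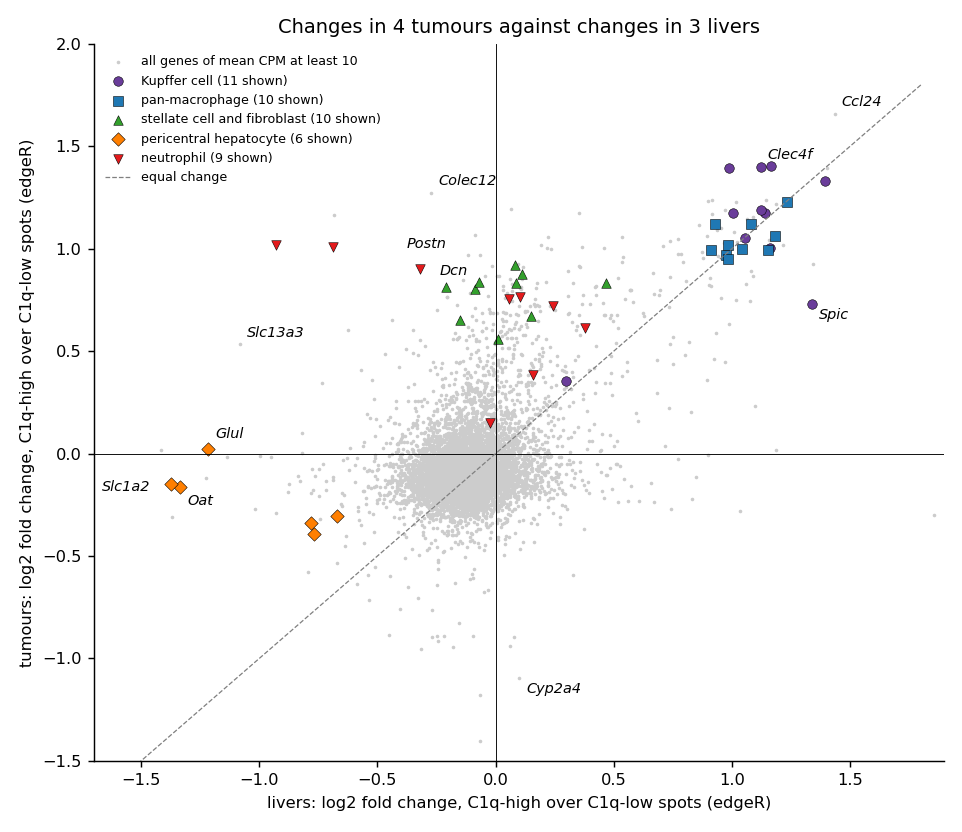
Each point is a gene of mean CPM of at least 10, with its edgeR log2 fold change between C1q-high and C1q-low spots in the 3 livers on the x axis and in the 4 tumours on the y axis; 12 of 8077 such genes lie outside the axes, and the dashed line marks equal change. Kupffer cell and pan-macrophage genes (purple circles, blue squares) lie along the line, stellate cell and fibroblast genes (green triangles) lie high on the y axis near 0 on the x axis, and pericentral genes (orange diamonds) lie left of 0; liver values of neutrophil genes (red triangles) rest on few UMIs.

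Kupffer cell genes accompanied C1q in both kinds of tissue. All 12 genes of the Kupffer cell list rose in the tumours and 11 rose in the livers, beside 8.27% and 0.88% of all genes tested. None was called in the difference, where 0.513% of all genes were, so that absence does not show equal change. The list's median log2 fold change was 1.18 in tumours and 1.13 in livers, beside −0.08 and −0.11 over all genes tested. Clec4f, the C-type lectin that marks mouse Kupffer cells, stood at 139.7 CPM in C1q-high and 53.9 CPM in C1q-low spots of NEJ146, at 212 and 53.1 CPM in NEJ634 and at 251 and 106 CPM in NEJ687. In the livers it stood at 130.2 and 59.9 CPM in NEJ638, at 268 and 116 CPM in NEJ654 and at 216 and 78.5 CPM in NEJ677. In each of these 6 tissues the C1q-high side was the higher, and NEJ634 had the widest gap. NEJ723, which also entered the tumour value, held few Clec4f UMIs, and its C1q-high side was not the higher. The log2 fold change was 1.40 ± 0.13 (SE, n = 4 tumours, edgeR adjusted p = 2.1e-05) in tumours and 1.12 ± 0.13 (SE, n = 3 livers, edgeR adjusted p = 0.00124) in livers.

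Cd5l, a secreted scavenger receptor cysteine-rich protein of tissue macrophages, was abundant in the same spots. Its level in C1q-high and C1q-low spots was 564 and 258 CPM in NEJ146, 487 and 140.3 in NEJ634, 1028 and 470.1 in NEJ687, and 155 and 72.0 in NEJ723. The corresponding liver levels were 104 and 49.7 CPM in NEJ638, 224 and 92.3 in NEJ654, and 187 and 69.6 in NEJ677. All 7 tissues moved the same way, by 1.19 ± 0.11 on the log2 scale in tumours and 1.12 ± 0.13 in livers (SE, edgeR adjusted p = 2.4e-05 and 0.00125). Marco, a scavenger receptor that binds bacteria and particles, rose by 1.33 ± 0.14 in tumours and 1.39 ± 0.19 in livers (edgeR adjusted p = 5.1e-05 and 0.00198). Its C1q-high level ran from 9.69 CPM in NEJ723 to 738 CPM in NEJ687, whereas the livers were alike at 51.1 to 57.5 CPM.

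The other members followed. Vsig4, the complement receptor of the immunoglobulin family, rose by 1.40 ± 0.15 in tumours and 1.17 ± 0.18 in livers. Fcna, a ficolin of the lectin complement pathway, rose by 1.05 ± 0.10 and 1.06 ± 0.13, and Adgre1, which encodes F4/80, by 1.17 ± 0.09 and 1.14 ± 0.15. Cd163, the haemoglobin-haptoglobin receptor, rose by 1.49 ± 0.18 and 1.25 ± 0.22, Folr2, a folate receptor, by 1.40 ± 0.18 and 0.99 ± 0.20, and Timd4, the phosphatidylserine receptor of long-lived resident cells, by 1.17 ± 0.14 and 1.01 ± 0.18. Clec1b, a C-type lectin receptor, rose by 1.002 ± 0.09 and 1.16 ± 0.15, and Spic, the transcription factor of iron-recycling macrophages, by 0.73 ± 0.09 and 1.34 ± 0.21. The exception was Slc40a1, the iron exporter ferroportin, which hepatocytes also express. It rose by 0.35 ± 0.07 in tumours (edgeR adjusted p = 0.00899), a call lost without NEJ687, and its liver value of 0.30 ± 0.09 did not pass the test (edgeR adjusted p = 0.104). The tumour count stayed at 11 or 12 under every alternative, but the liver count fell to 5 without NEJ654, 3 without NEJ677 and 7 when spots were chosen on C1qa alone, with no sign turned.

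**Figure D3:**
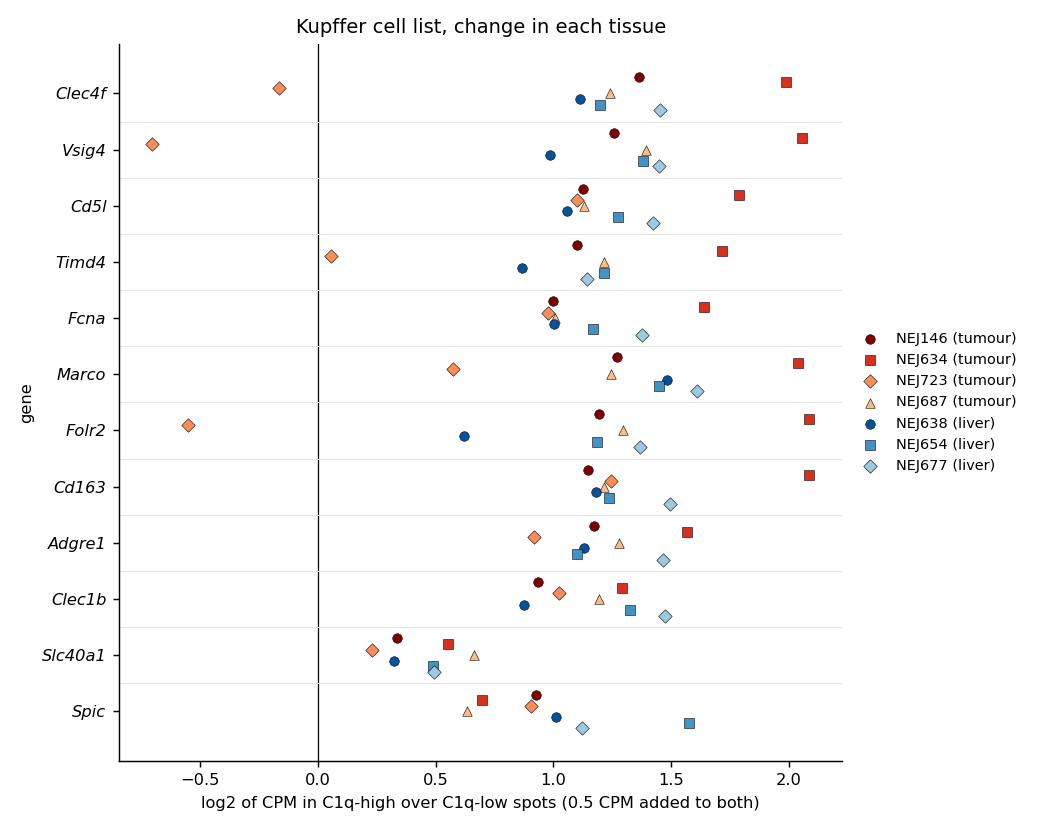
For each gene of the Kupffer cell list, the log2 ratio of CPM in C1q-high over C1q-low spots, with 0.5 CPM added to both, is shown for the 4 tumours (red shades) and 3 livers (blue shades). Almost all points lie right of 0, NEJ634 is often farthest right, and NEJ723 lies at or left of 0 for Clec4f, Vsig4 and Folr2, which had at most 15 UMIs on either side there.

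NEJ723 stood apart from the other tumours in the makeup of its C1q-high spots. Clec4f had 1 UMI among 4232966 in its C1q-high spots and 7 among 21427298 in its C1q-low spots, Vsig4 had 1 and 15, and Folr2 had 0 and 5. For Folr2 a count of 0 allows up to 3 UMIs in the library. Timd4 stood at 1.18 and 1.12 CPM. These are also the genes that C1q-high spots of the other 3 tumours carried at 14.8 to 251 CPM. The same spots of NEJ723 held other genes of the list at higher levels than its C1q-low spots. Fcna was at 115 and 57.9 CPM, Adgre1 at 17.0 and 8.77 CPM, Clec1b at 23.4 and 11.2 CPM, Cd163 at 2.13 and 0.607 CPM, and Spic at 24.8 and 13.0 CPM. With 1 section of NEJ723, this is a description of that tissue with no test. Summed over the list, C1q-high spots of NEJ723 held 1.79 times the level of C1q-low spots, the lowest ratio of the 7 tissues, and those of NEJ634 3.24 times, the highest. The other tumours had 2.09 and 2.20, and the livers 1.92, 2.23 and 2.46.

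**Figure D4:**
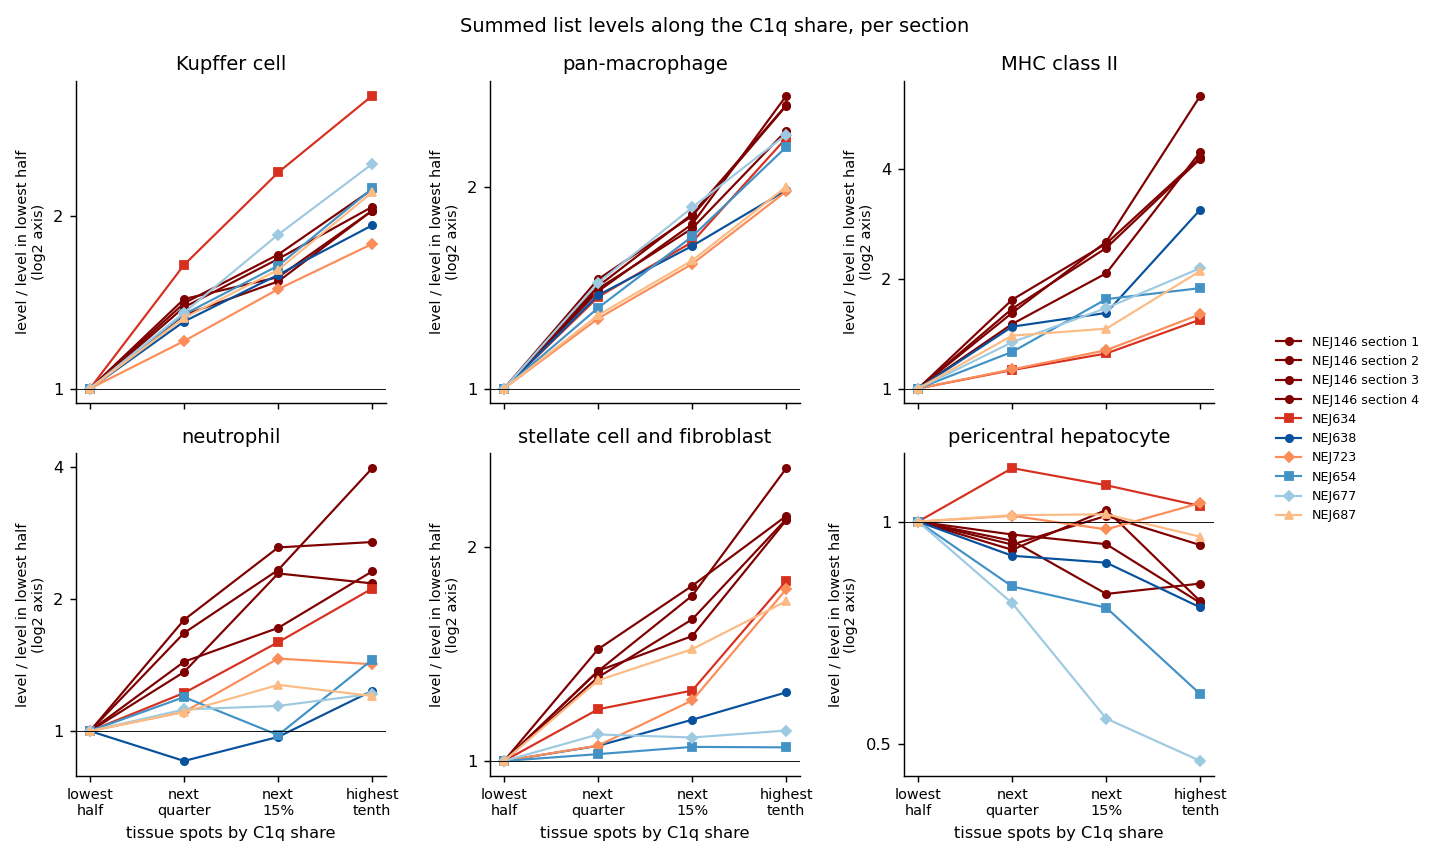
Summed level of 6 gene lists in 4 classes of tissue spots ordered by C1q share, relative to the C1q-low class and on a log2 axis, with 1 line per section (tumours in red shades, livers in blue shades). Kupffer cell and pan-macrophage lists climb class by class in all 10 sections, the stellate cell and fibroblast list climbs in the 7 tumour sections and by 1.05 to 1.25 times in the livers, and the pericentral list reaches 0.76, 0.58 and 0.47 times in the livers.

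Since these genes moved together, the bases ahead of their transcription starts are shown for C1qb, which helped to choose the spots, for Cd5l, Marco and Vsig4, and for Clec4f as a marker without the motif. Each run covers the 250 bases before the RefSeq start on GRCm38.p6, 5′ to 3′ on the gene's strand: chr4:136886201-136886450 (minus) for C1qb, chr3:87357631-87357880 (plus) for Cd5l, chr1:120505025-120505274 (minus) for Marco, chrX:96293439-96293688 (minus) for Vsig4 and chr6:83656117-83656366 (minus) for Clec4f. Capitals mark GAGGAA or its reverse complement TTCCTC, a core bound by ETS factors such as the macrophage regulator PU.1.
C1qb: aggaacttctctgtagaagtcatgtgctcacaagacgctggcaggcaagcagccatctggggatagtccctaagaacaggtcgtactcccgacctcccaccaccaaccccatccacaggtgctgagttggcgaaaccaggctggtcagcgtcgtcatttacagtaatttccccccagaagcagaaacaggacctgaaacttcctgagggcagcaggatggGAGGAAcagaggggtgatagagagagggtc
Cd5l: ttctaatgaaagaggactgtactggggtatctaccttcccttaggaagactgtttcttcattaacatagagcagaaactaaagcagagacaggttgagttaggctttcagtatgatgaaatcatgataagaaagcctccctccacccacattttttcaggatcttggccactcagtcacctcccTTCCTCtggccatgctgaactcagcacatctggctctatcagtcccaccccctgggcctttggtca
Marco: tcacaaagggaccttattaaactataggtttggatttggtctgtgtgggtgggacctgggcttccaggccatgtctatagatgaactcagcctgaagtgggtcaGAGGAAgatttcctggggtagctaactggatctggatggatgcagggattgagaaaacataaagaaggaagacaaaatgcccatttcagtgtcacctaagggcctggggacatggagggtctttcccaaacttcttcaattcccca
Vsig4: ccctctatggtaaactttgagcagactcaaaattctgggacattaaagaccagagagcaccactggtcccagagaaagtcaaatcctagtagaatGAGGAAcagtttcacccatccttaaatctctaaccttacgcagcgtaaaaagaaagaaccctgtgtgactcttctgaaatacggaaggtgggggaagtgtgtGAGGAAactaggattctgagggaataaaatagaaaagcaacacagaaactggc
Clec4f: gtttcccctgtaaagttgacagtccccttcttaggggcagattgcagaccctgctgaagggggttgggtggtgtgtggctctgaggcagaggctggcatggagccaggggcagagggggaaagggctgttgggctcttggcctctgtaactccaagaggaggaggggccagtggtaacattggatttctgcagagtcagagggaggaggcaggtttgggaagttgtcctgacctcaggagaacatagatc
The letters occurred once in C1qb, Cd5l and Marco and at 2 positions in Vsig4. Searched on both strands, they were found in 23.3% of all 32851 RefSeq promoters of this length and in 22.1% of those of the genes tested. The share was 27.7% for genes that rose in tumours (258 of 931 promoters) and 37% for genes that rose in livers (30 of 81). On the Kupffer cell list 4 of 11 promoters held it, and on the pan-macrophage list 5 of 10. These matches describe sequence and are no evidence of binding.

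General macrophage genes behaved like the Kupffer cell list. All 12 pan-macrophage genes rose in tumours and 11 in livers, beside 8.27% and 0.88% of all genes tested. The median log2 fold changes of the list were 1.01 and 0.98. None of its genes was called in the difference, where 0.513% of all genes were. Ctss, the cysteine protease that trims the invariant chain, was at 188 and 61.5 CPM in C1q-high and C1q-low spots of NEJ146, 177 and 69.9 in NEJ634, 187 and 82.2 in NEJ687 and 127.8 and 58.4 in NEJ723. It was at 42.6 and 18.1 CPM in NEJ638, 80.5 and 30.6 in NEJ654 and 71.7 and 25.9 in NEJ677. The sides did not overlap within the tumours or within the livers, and the log2 fold change was 1.23 in each set (SE 0.06 in tumours and 0.09 in livers, edgeR adjusted p = 8.5e-07 and 9.1e-05). Csf1r, the receptor for colony-stimulating factor 1, rose by 1.12 ± 0.07 and 1.08 ± 0.10, Lyz2, lysozyme, by 1.12 ± 0.08 and 0.93 ± 0.10, and Tyrobp, the adaptor DAP12, by 1.02 ± 0.06 and 0.98 ± 0.08.

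Several of the strongest changes outside that list were also shared. Ccl24, the chemokine eotaxin-2, had the largest rise among the named genes in each set, 1.66 ± 0.13 in tumours and 1.44 ± 0.17 in livers (edgeR adjusted p = 6.9e-06 and 0.00117). It went from 18.1 to 50.4 CPM in NEJ687 but was at 0.945 CPM or less in NEJ723. Ear2, a ribonuclease of a family with near-identical copies that UMI counting could split, rose by 1.24 ± 0.07 and 1.14 ± 0.21. Fcgr1, the high-affinity IgG receptor, rose by 1.24 ± 0.10 and 0.90 ± 0.18, Itgb2, the beta chain of leukocyte integrins, by 1.02 ± 0.09 and 1.22 ± 0.17, and Slc7a8, an amino acid transporter, by 0.93 ± 0.11 and 1.34 ± 0.23. The liver calls of Ear2 and Fcgr1 were lost when any 1 liver was left out, that of Slc7a8 without NEJ654 or NEJ677 and that of Itgb2 without NEJ677, with all values above 0. Hmox1, which degrades heme, rose by 0.97 ± 0.06 and 0.94 ± 0.12. Of the 6 chemokine genes tested, 5 rose in tumours and 2, Ccl24 and Ccl6, in livers, beside 8.27% and 0.88% of all genes tested. The liver call of Ccl6 was lost under 6 of 23 alternatives, among them leaving out NEJ687 or any 1 liver. Of 8 complement genes, 4 rose in tumours (C3ar1, C5ar1, Cfp and C6) and Cfp, properdin, in livers, while C3, made by hepatocytes, stayed within 0.1 of 0 on the log2 scale in each set.

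Of 12 lysosomal genes tested, 2, Ctsd and Psap, were called in the difference between tumours and livers, beside 0.513% of all genes tested. Within that list, which also holds genes of phagocytosis, 9 rose in tumours and 2 in livers, beside 8.27% and 0.88% of all genes tested. The 2 liver genes were Lgmn, a lysosomal protease, and Axl, a receptor for apoptotic cells. Neither was called in livers without NEJ654 or without NEJ677. Ctsd, which encodes the lysosomal protease cathepsin D, was at 1269 and 681 CPM in C1q-high and C1q-low spots of NEJ146, 1084 and 594 in NEJ634, 1466 and 912 in NEJ687 and 937 and 589.5 in NEJ723. In the livers it was at 327 and 302 CPM in NEJ638, 354 and 312 in NEJ654 and 286 and 270.0 in NEJ677. It rose by 0.68 ± 0.05 in tumours (edgeR adjusted p = 5.9e-06), its liver value was −0.01 ± 0.06, and the difference was 0.70 ± 0.08 (edgeR adjusted p = 0.00404). The liver CPM, given without TMM, were higher in C1q-high spots, whereas the fitted value is with TMM, under which the liver median of all genes was −0.11. Psap, the precursor of the saposins that assist sphingolipid breakdown, differed by 0.45 ± 0.07 (edgeR adjusted p = 0.0186). The Ctsd difference was 0.50 to 0.73 over the alternatives and lost its call without NEJ723, and the Psap difference was 0.32 to 0.49 and lost it without any of NEJ634, NEJ723, NEJ687, NEJ638, NEJ654 or NEJ677, with the top 5% of spots, without margin spots and after thinning. Ctsb, another lysosomal protease, rose by 0.56 ± 0.05 in tumours, and its difference of 0.39 ± 0.08 did not pass the test (edgeR adjusted p = 0.0733) but was called under 4 of 23 alternatives, among them without TMM and without NEJ146 (0.29 to 0.39).

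Genes of recruited and lipid-associated macrophages did not move as a block. Of the 10 tested, 6 rose in tumours and 1, Lgals3, in livers, beside 8.27% and 0.88% of all genes tested. None was called in the difference, where 0.513% of all genes were. The list's median log2 fold change was 0.71 in tumours and 0.25 in livers. Its summed ratio was 1.58 in NEJ146, 0.845 in NEJ634, 1.08 in NEJ687 and 1.09 in NEJ723, and 0.97 to 1.12 in livers. That sum weighs abundant genes most. In C1q-low spots Fabp5 alone gave 12.5 of the list's 16.3 UMIs per 10000 in NEJ634 and 2.67 of 3.20 in NEJ638. Fabp5, a fatty acid binding protein, was at 538 and 389 CPM in C1q-high and C1q-low spots of NEJ146 but at 868 and 1252 CPM in NEJ634, with a tumour value of −0.12 ± 0.11 that became −0.31 without NEJ146 (edgeR adjusted p = 0.00418). In livers Fabp5 was at 51.5 to 267 CPM. Trem2, a lipid-sensing receptor, was at 35.8 and 11.2 CPM in C1q-high and C1q-low spots of NEJ146, 36.2 and 11.4 in NEJ634, 17.6 and 7.34 in NEJ687 and 15.6 and 6.86 in NEJ723. In livers no side exceeded 2.51 CPM. It rose by 1.39 ± 0.11 in tumours (edgeR adjusted p = 6.8e-06), and its liver value of 1.40 ± 0.36 did not pass the test (edgeR adjusted p = 0.0643) but was called under 4 of 23 alternatives (1.08 to 1.498). Gpnmb, a lysosomal glycoprotein of lipid-laden macrophages, rose by 1.16 ± 0.10 in tumours, from 11.4 to 18.6 CPM in C1q-low spots to 22.4 to 46.4 CPM in C1q-high spots. It did not exceed 0.241 CPM in the C1q-high or C1q-low spots of any liver. Ccr2, the chemokine receptor of inflammatory monocytes, rose by 0.82 ± 0.24 in tumours (edgeR adjusted p = 0.037). That call was lost under 6 of 23 alternatives: without NEJ146, NEJ654 or NEJ677, with DESeq2, without margin spots and after thinning. The liver rise of Lgals3 was lost when any 1 liver was left out.

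Antigen presentation genes rose most in NEJ146. All 6 MHC class II genes tested rose in tumours and 2, Cd74 and H2-Ab1, in livers, beside 8.27% and 0.88% of all genes tested. Cd74, the invariant chain, was at 291 and 58.0 CPM in C1q-high and C1q-low spots of NEJ146, 108 and 70.2 in NEJ634, 188 and 79.7 in NEJ687 and 35.9 and 22.1 in NEJ723. In livers it was at 113 and 33.03 CPM in NEJ638, 77.7 and 40.9 in NEJ654 and 123 and 51.9 in NEJ677. The change was 1.22 ± 0.21 in tumours and 1.19 ± 0.25 in livers (edgeR adjusted p = 0.00281 and 0.0347). The 4 NEJ146 sections gave Cd74 ratios of 4.86, 4.57, 4.67 and 6.78. Summed over the list, NEJ146 had a ratio of 4.63, the other tumours 1.54 to 2.10 and the livers 1.88 to 3.09. The median log2 fold change was 1.17 in tumours and 1.02 in livers, and none of the 6 was called in the difference. The count of liver calls went from 0 when any 1 liver or NEJ687 was left out to 4 with DESeq2 or without NEJ634 and 6 without NEJ146. Dendritic cell genes, which mark other antigen-presenting cells, were at a summed ratio of 2.40 in NEJ146, 1.16 to 1.53 in the other tumours and 0.808 to 1.22 in livers. Only 2 of the 6 were abundant enough to test. Itgax, an integrin that macrophages also carry, rose by 0.93 ± 0.21 in tumours (edgeR adjusted p = 0.0116), called under 21 of 23 alternatives, and Zbtb46 stood at 0.07 ± 0.16. Their part in the MHC class II values was not tested. Of 8 interferon response genes, 6 rose in tumours, beside 8.27% of all genes tested. Irf7 and Ifi27l2a rose in livers too, where 0.88% of all genes did, by 0.53 ± 0.11 and 0.49 ± 0.10, calls lost without NEJ654 or NEJ677.

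Neutrophil genes were higher in C1q-high spots of the tumours. Of 10 genes, 7 rose there, beside 8.27% of all genes tested. None was called in the livers, where 0.88% of all genes rose. None was called in the difference between tumours and livers, which was larger in tumours for 0.513% of all genes. S100a9, a subunit of calprotectin, was at 296 and 108 CPM in C1q-high and C1q-low spots of NEJ146, 469 and 217 in NEJ634, 464 and 380.4 in NEJ687 and 190.4 and 132 in NEJ723, and at 3.40 to 14.2 CPM over both sides of the livers. It rose by 0.76 ± 0.13 in tumours (edgeR adjusted p = 0.0025). Camp, the granule peptide cathelicidin, rose by 1.02 ± 0.20 in tumours (edgeR adjusted p = 0.00769) and did not exceed 1.01 CPM on either side of the livers, so a change there was not detectable at this depth. The list's summed ratio was 2.80 in NEJ146, 2.11 in NEJ634, 1.202 in NEJ687 and 1.42 in NEJ723, and in livers it was 1.24 in NEJ638, 1.45 in NEJ654 and 1.22 in NEJ677, which overlaps the lower tumours. The tumour count stayed at 6 to 8 under every alternative. No gene of the 4 T and NK cell genes or the 3 B and plasma cell genes tested was called in tumours or livers. The summed ratios of the 2 lists in NEJ146 were 1.89 and 2.32. For T and NK cell genes the ratio was 1.04 in NEJ634, 1.23 in NEJ687 and 1.14 in NEJ723, and 1.05 to 1.43 in livers. For B and plasma cell genes it was 1.35, 0.974 and 0.505 in these tumours, and 1.14 to 2.10 in livers. In tumours Cd79b, a part of the B cell receptor, was called higher under 5 of 23 alternatives (0.72 to 0.94), Trbc2, a T cell receptor chain, under 3 (0.77 to 0.84), and Nkg7, Ccl5 and Ighm under 1 each. Of 10 erythroid genes, 1, Slc4a1, rose in tumours, near the 8.27% of all genes that did, and the call was lost under 10 of 23 alternatives. Car2 fell in livers, a call lost under 14 of 23. Hbb-bs, a beta-globin gene, was at 7166 and 5268 CPM in NEJ146 and at 4278 and 5255 CPM in NEJ687, opposite directions, and the 4 NEJ146 sections gave ratios of 0.976, 1.24, 1.32 and 1.96.

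Connective tissue genes were higher in C1q-high spots of the tumours. All 10 stellate cell and fibroblast genes rose in tumours, under every alternative, beside 8.27% of all genes tested. None rose in livers, where 0.88% of all genes did and at most 1 of the 10 was called under any alternative. The median log2 fold change of the list was 0.82 in tumours and 0.05 in livers. Dcn, the collagen-binding proteoglycan decorin, was at 261 and 149.6 CPM in C1q-high and C1q-low spots of NEJ146, 285 and 123 in NEJ634, 145.97 and 75.9 in NEJ687 and 56.9 and 33.5 in NEJ723. In livers it was at 167 and 159 CPM in NEJ638, 167 and 171 in NEJ654 and 141 and 125 in NEJ677. It rose by 0.84 ± 0.08 in tumours (edgeR adjusted p = 2.8e-05), its liver value was −0.07 ± 0.09, and the difference was 0.91 ± 0.12 (edgeR adjusted p = 0.00821). Reln, a secreted protein of stellate cells, and Ecm1, an extracellular matrix protein, were also called in the difference, by 0.81 ± 0.12 and 0.75 ± 0.13 (edgeR adjusted p = 0.0175 and 0.024). Over the alternatives the differences were 0.63 to 1.05 for Dcn, 0.47 to 0.87 for Reln and 0.47 to 0.83 for Ecm1. Without NEJ723 or without NEJ654 none of the 3 was called, Reln and Ecm1 also lost the call without NEJ634, NEJ638 or NEJ677, and Ecm1 without NEJ687. In all, 2, 8 and 9 of 23 alternatives did not call them. For Col3a1, a fibrillar collagen that rose by 0.81 ± 0.11 in tumours, the difference of 0.89 ± 0.18 did not pass the test (edgeR adjusted p = 0.0528) but was called under 10 of 23 alternatives, among them DESeq2 and without NEJ146 (0.59 to 1.13).

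Colec12 had the lowest adjusted p of the named genes in the difference between tumours and livers. This scavenger receptor of the collectin family was at 29.6 and 12.1 CPM in C1q-high and C1q-low spots of NEJ146, 23.0 and 9.31 in NEJ634, 28.8 and 8.98 in NEJ687 and 8.98 and 3.45 in NEJ723. In the livers it was at 20.5 and 20.9 CPM in NEJ638, 19.5 and 23.6 in NEJ654 and 22.0 and 23.5 in NEJ677. C1q-high spots were higher in each tumour and slightly lower in each liver. The log2 fold change was 1.27 ± 0.09 in tumours (edgeR adjusted p = 4.3e-06) and −0.27 ± 0.12 in livers (edgeR adjusted p = 0.2). The difference of 1.55 ± 0.15 (edgeR adjusted p = 0.00172) was called in all 23 alternatives, with values from 0.97 to 1.59, and its ratio in the 4 NEJ146 sections was 2.33 to 2.51. Postn, a matricellular protein of fibroblasts, differed by 1.09 ± 0.17, and Adamtsl2, a secreted glycoprotein of the matrix, by 0.99 ± 0.17 (edgeR adjusted p = 0.0186 and 0.0245). They rose by 0.97 ± 0.10 and 0.85 ± 0.08 in tumours, with liver values of −0.12 ± 0.14 and −0.14 ± 0.15. Over the alternatives the differences were 0.78 to 1.27 and 0.78 to 1.13, and both lost the call when NEJ634, NEJ723 or any 1 liver was left out. In all, the Postn difference was not called under 7 and the Adamtsl2 difference under 11 of 23 alternatives, including the top 5% of spots and margin spots left out for both, and no TMM, like UMI totals, C1qa alone and thinning for Adamtsl2.

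**Figure D5:**
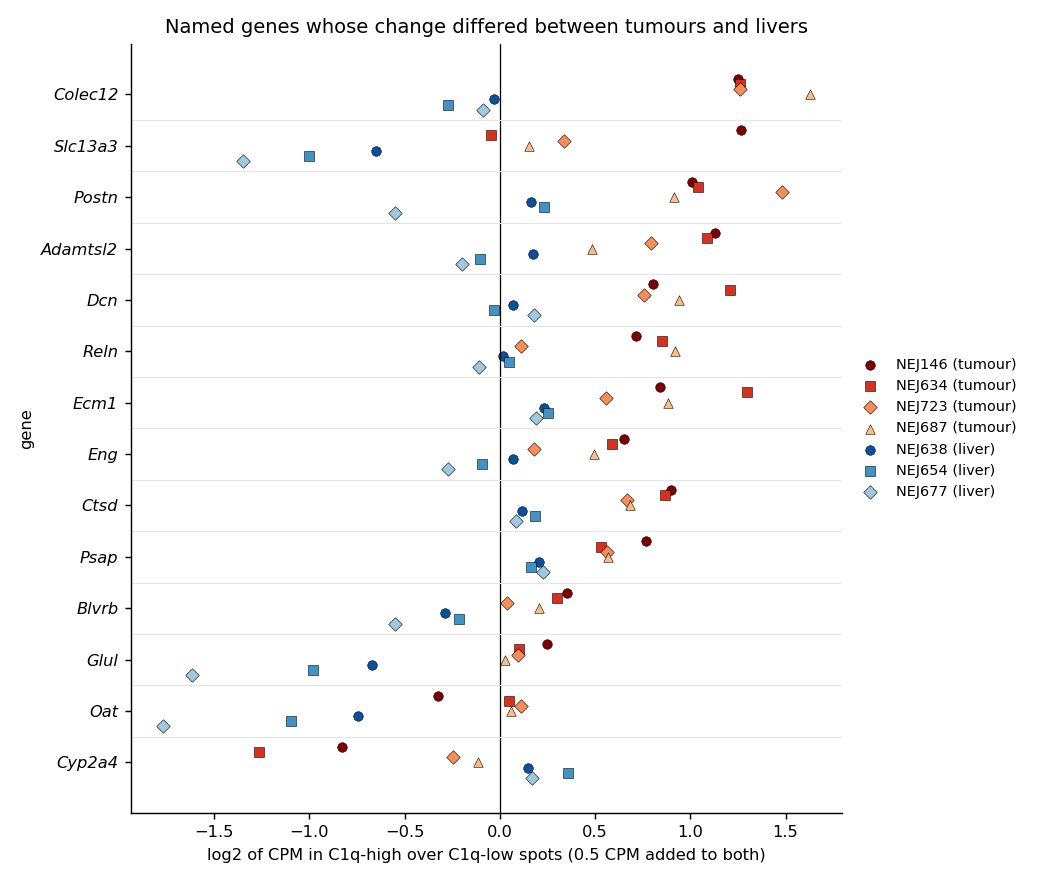
For the 14 named genes called in the difference between tumours and livers, the log2 ratio of CPM in C1q-high over C1q-low spots, with 0.5 CPM added to both, is shown per tissue (tumours in red shades, livers in blue shades). Colec12 lies above 0 in each tumour and below 0 in each liver, and for Glul and Oat the separation comes from negative liver values.

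Sinusoidal endothelial genes moved less. Of 10 genes, 4 rose in tumours, beside 8.27% of all genes tested, and the count was 1 to 4 under the alternatives. None was called in livers, but with C1q-high set against all other tissue spots Eng and Oit3 were called lower there, at −0.23 and −0.32. The list's summed ratio was 1.12 to 1.47 in tumours and 0.98 to 1.02 in livers. Eng, a transforming growth factor co-receptor of endothelium, differed by 0.65 ± 0.10 (edgeR adjusted p = 0.0186), from 0.42 ± 0.06 in tumours and −0.23 ± 0.08 in livers, a call lost without TMM, with the top 5% of spots, with C1qa alone and without NEJ723, NEJ634, NEJ687, NEJ654 or NEJ677 (0.48 to 0.73 over the alternatives). Of 6 bile duct genes, Krt19 and Spp1 rose in tumours, beside 8.27% of all genes tested. The Krt19 call was lost without NEJ146, where the gene was at 20.4 and 3.95 CPM, without NEJ677, with DESeq2, without margin spots and after thinning of the C1q UMIs. Without NEJ146 Cldn7, a tight junction gene, and the keratin gene Krt7 were called lower, at −0.52 and −0.30 (edgeR adjusted p = 0.00097 and 0.0458), against 0.41 and 0.67 with it.

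Among the genes that fell in the livers were those of pericentral hepatocytes, which surround the central vein and detoxify ammonia and drugs. All 6 pericentral genes were lower in C1q-high spots of the livers, beside 1.44% of all genes tested, and none was called in tumours, where 7.9% of all genes were lower. In tumours Cyp2e1 and Gulo were each called lower under 7 of 23 alternatives, at −0.67 to −0.39 and −0.55 to −0.34, and Cyp1a2 under 3, at −0.55 to −0.298. Glul, glutamine synthetase of the innermost hepatocyte layer, was at 230.4 and 367 CPM in C1q-high and C1q-low spots of NEJ638, 339.7 and 671 in NEJ654 and 149 and 458 in NEJ677. In the tumours it was at 105 and 88.0 CPM in NEJ146, 89.3 and 83.2 in NEJ634, 116 and 114 in NEJ687 and 36.9 and 34.4 in NEJ723. Glul fell by 1.22 ± 0.12 in livers (edgeR adjusted p = 0.00048), its tumour value was 0.02 ± 0.11, and the difference was 1.24 ± 0.16 (edgeR adjusted p = 0.00682). Oat, ornithine aminotransferase, fell by 1.33 ± 0.15 in livers and differed by 1.17 ± 0.20 (edgeR adjusted p = 0.024). Over the alternatives the differences were 0.81 to 1.43 for Glul and 0.72 to 1.38 for Oat. They were not called for Glul without NEJ723 or NEJ654, nor for Oat without any of NEJ634, NEJ723, NEJ687, NEJ654 or NEJ677, and in all were lost under 3 and 8 of 23 alternatives.

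Slc1a2, a glutamate transporter, fell by 1.37 ± 0.16 in livers (edgeR adjusted p = 0.00124), Gulo, an enzyme of ascorbate synthesis, by 0.78 ± 0.10, and the drug-metabolising Cyp2e1 and Cyp1a2 by 0.77 ± 0.12 and 0.67 ± 0.10. Outside the list, the phosphatase gene Lhpp fell by 1.21 ± 0.16 and the ammonium transporter gene Rhbg by 1.14 ± 0.15, both calls lost without NEJ654 and that of Rhbg without NEJ677. Without NEJ654 or without NEJ677 3 of the 6 pericentral genes kept the call. The summed level of the list in C1q-high spots was 0.76 times that in C1q-low spots in NEJ638, 0.58 times in NEJ654 and 0.47 times in NEJ677, and 0.83 to 1.06 times in tumours. Periportal genes, of the hepatocytes at the opposite end of the lobule, had ratios of 1.10, 1.24 and 1.28 in the livers, and none of the 6 was called. Without NEJ146 Cyp2f2, Hal and Hsd17b13 were called higher in livers, at 0.29, 0.25 and 0.26. In tumours Ass1, Hal, Sds and Cyp2f2 were called lower without NEJ634, at −0.36, −0.43, −0.40 and −0.46, and Pck1 was called higher without NEJ146, at 0.29. In the livers C1q-high spots had fewer UMIs, and with both sides taken within like UMI totals all 6 pericentral genes were still called, whereas the differences of Oat and Slc13a3 between tumours and livers were not. Slc13a3, a dicarboxylate transporter, had the largest named difference at 1.61 ± 0.28 (edgeR adjusted p = 0.0245). Its level was low in the NEJ146 sections, at 3.45 to 8.11 CPM in C1q-high and 1.98 to 3.12 CPM in C1q-low spots. These levels lie under the mean CPM required of genes named by size, so Slc13a3 met that limit through other tissues. It fell by 1.08 ± 0.20 in livers, and its tumour value of 0.53 ± 0.19 did not pass the test (edgeR adjusted p = 0.0711). Over the alternatives the difference was 0.96 to 1.78, and the call was lost under 8 of 23 of them, among them without TMM and when NEJ723 or any 1 liver was left out. The liver call was lost when any 1 liver was. Blvrb, biliverdin reductase B, fell by 0.49 ± 0.07 in livers and differed by 0.63 ± 0.09 (edgeR adjusted p = 0.0151), lost when NEJ634, NEJ723 or any 1 liver was left out (0.40 to 0.70 over the alternatives). Its liver fall was lost without NEJ677.

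Of the 5 largest falls named for the tumours, 3 were also called in the livers. Cyp2a4, a steroid hydroxylase with a near-identical copy that UMI counting could split, fell by 1.10 ± 0.16 (edgeR adjusted p = 0.00082). It was at 4.52 and 8.41 CPM in C1q-high and C1q-low spots of NEJ146 and at 0.819 CPM or less in the other tumours, so it was high enough to be named through the livers and its tumour value rested on NEJ146, and the fall was not called without that tissue or with DESeq2. In livers it stood at 19.3 to 229.9 CPM, with a value of 0.10 ± 0.09, and the difference was −1.195 ± 0.18 (edgeR adjusted p = 0.0175). Cyp2a4 was the 1 gene called on the liver side of the difference, and it was not called with DESeq2, with spots chosen on C1qa alone, or without NEJ146, NEJ723, NEJ654 or NEJ677 (−1.47 to −0.58 over the alternatives). Cyp2c67, of a cytochrome family with close copies, fell by 0.58 ± 0.11 in tumours and 0.79 ± 0.11 in livers, Notum, a Wnt-inactivating esterase, by 0.55 ± 0.14 and 0.51 ± 0.10, and Akr1c6, a steroid dehydrogenase, by 0.51 ± 0.09 and 0.38 ± 0.07. Car3, a carbonic anhydrase, fell by 0.48 ± 0.09 in tumours, and its liver value was −0.22 ± 0.09. The falls of Notum were lost under 7 of 23 alternatives in tumours and 9 in livers. In both sets these included no TMM, DESeq2, like UMI totals, C1qa alone and leaving out NEJ654. Its tumour fall was also lost without NEJ146 and after thinning. The liver falls of Notum and Akr1c6 were lost when any 1 liver was left out. Cyp2c67 lost its tumour fall without TMM and its liver fall without NEJ677.

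Genes of the tumour cells differed in direction between tumours. None of the 5 hepatoblast and tumour genes was called. Dlk1, a surface protein of hepatoblasts, was at 70.6 and 14.6 CPM in C1q-high and C1q-low spots of NEJ146, 3.64 to 6.48 times higher in its 4 sections, but at 87.5 and 119.8 CPM in NEJ634, 34.0 and 48.0 in NEJ687 and 122 and 103 in NEJ723. Gpc3, a glypican of fetal liver, was 1.86 to 3.13 times higher in the NEJ146 sections. Afp was at 2880 and 1696 CPM in C1q-high and C1q-low spots of NEJ146 but at 3415 and 4625 CPM in NEJ634, opposite directions, and its tumour value was 0.00 ± 0.12. Without NEJ146 Dlk1, Afp and the fetal growth factor gene Igf2 were called lower in C1q-high spots, at −0.31, −0.24 and −0.29 on the log2 scale (edgeR adjusted p = 0.0233, 0.00776 and 0.00089). Of 6 proliferation genes 5 were lower in tumours, beside 7.9% of all genes tested. The list's summed ratio, without TMM, was 1.04 in NEJ146 and 0.898 to 0.930 in the other tumours. Mki67 changed by −0.19 ± 0.05 and Birc5 by −0.21 ± 0.05 on the log2 scale (edgeR adjusted p = 0.0324 and 0.0217). These values lie near the median of all genes, and none of the 6 was called without TMM, with DESeq2 or without NEJ687.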

How the data were processed

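RNA captured on 10x Visium slides was measured in 10 sections of 7 tissues. The authors deposited unfiltered UMI counts for 31053 genes, made per the labels with Cell Ranger 6.0 (NEJ146) or Space Ranger 1.3 on mm10 (other tissues). The build used for NEJ146 was not given in the sources used here, and NEJ146 barcodes took their places from the position files of the other sections. Tissue spots lay inside the outline with at least 2000 UMIs, or had at least 8000 UMIs in NEJ146, which had no outline. Outside the outline of the other sections the median spot held 6660 to 11895 UMIs, so the NEJ146 tissue spots may include spots off the tissue. The raw counts of C1q-high and C1q-low spots were summed per tissue and side into 14 libraries, with NEJ146 sections pooled. edgeR 4.0.16 in R 4.3.3 was run with TMM scaling, tissue as a block and a side term each for tumours and livers, over genes of mean CPM of at least 2, leaving out the C1q genes, with 5 residual degrees of freedom. CPM are UMIs per 1000000 UMIs of a library without TMM, and 3′ tags do not allow levels of different genes to be compared. Scripts were tested on simulated data. UMI totals limit precision by counting error, and p-values measure the spread between tissues.

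Named genes were every Kupffer cell gene, the 8 called genes with the largest rise and the 5 with the largest fall in each set among genes of mean CPM of at least 10 with 1 direction in every tissue, the 6 largest differences each way, list members called in the difference, and 2 to 4 of the most abundant members of each other list. Lists numbered 21 (175 genes). The spots, lists and tests were chosen with earlier results of these data known. In addition to those in the report, alternatives were DESeq2 1.42.0, other filters, spot limits and margins, and leaving out each tissue or NEJ146 section. Promoters came from RefSeq, and no protein sequences were used.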

Additional observations from a re-analysis of the deposited data

Results flagged for a closer look

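Among the 4 tumours, the log2 ratio of CPM in C1q-high over C1q-low spots of 1 tissue lay apart from the others for 15 of 112 genes examined. For independent values of equal spread, chance gives about 1 in 20. These genes were chosen from the same data and the tumours differed in depth, so 15 is not shown to exceed chance. In NEJ634 the genes were Cd5l at 1.79, Fcna at 1.64, Cd163 at 2.09 and Clec4g at 0.92, each the highest tumour. In NEJ146 they were H2-Ab1 at 2.08, Krt7 at 2.35, Plac8 at 1.24, Psap at 0.77, C2 at 0.53, Bst2 at 0.50, Birc5 at −0.017 and Oat at −0.33. In NEJ687 they were Colec12 at 1.63, Hbb-bs at −0.30 and Hba-a2 at −0.31. The C1q genes chose the spots and were not examined. Hba-a2 shares sequence with a near-identical copy.

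The change between C1q-high and C1q-low spots differed between tumours and livers for 14 named genes by the edgeR contrast of the log2 fold changes. Tumours minus livers, it was 1.61 for Slc13a3, 1.55 for Colec12, 1.24 for Glul, 1.17 for Oat, 1.09 for Postn, 0.99 for Adamtsl2, 0.91 for Dcn, 0.81 for Reln, 0.75 for Ecm1, 0.70 for Ctsd, 0.65 for Eng, 0.63 for Blvrb, 0.45 for Psap and −1.195 for Cyp2a4, which rests on NEJ146, since the other tumours held 0.819 CPM or less, and was not called without that tissue.

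Spots outside the tissue outline, which entered no comparison, carried C1q transcripts at 6.15 UMIs per 10000 in NEJ634, 3.78 in NEJ723, 7.62 in NEJ687, 1.76 in NEJ638, 2.70 in NEJ654 and 2.22 in NEJ677. The order of the 6 sections was the same as that of their tissue spots, at 6.002, 4.73, 8.58, 1.83, 2.92 and 2.62.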

How the results depend on the processing

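The genes that rose in tumours numbered 707 to 987 when a tissue or a NEJ146 section was left out, those that fell 317 to 3183, those that rose in livers 26 to 216, those that fell there 12 to 357, and the differences 2 to 110 (larger in tumours) and 0 to 54 (larger in livers). Falls in tumours numbered 66 without TMM, 95 with DESeq2, 3389 with the top 5% of spots, 1509 against all other spots, 367 without margin spots and 595 with C1q UMIs thinned to the mean of the sparsest section, a setting added after the data were seen. Falls in livers numbered 27 without TMM, 32 with DESeq2, 39 with the top 5%, 1751 against all other spots, 60 within classes of like UMI totals, 32 with spots chosen on C1qa and 44 without margin spots. Rises in livers numbered 36 with spots chosen on C1qa and 66 without margin spots. Differences larger in tumours numbered 28 without TMM, 102 without the CPM filter, 11 with the top 5%, 102 against all other spots, 17 with C1qa, 24 without margin spots and 21 after thinning. Those larger in livers numbered 2 without TMM, 6 without the filter, 6 with the top 5%, 3 against all other spots, 2 without mitochondrial and globin UMIs and 4 after thinning. The causes of these moves were not tested.

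List and named genes with a call kept their sign under all alternatives and stayed called in 2296 of 2392 gene-by-alternative results in tumours, 1037 of 1173 in livers and 235 of 322 in the difference. List genes not called there gained 90 such calls in tumours, 49 in livers and 28 in the difference. Of these, 5, all in tumours without NEJ146, had the opposite sign: Krt7 at −0.30, Cldn7 at −0.52, Afp at −0.24, Dlk1 at −0.31 and Pck1 at 0.29. Tumours could not be paired with livers, since they were separate tissues and the labels gave no pairs. C1q-high and C1q-low spots were paired within each tissue by the block for tissue. A median C1q-high spot of the livers held 5 to 9.5 C1q UMIs. With C1q UMIs thinned in all sections, 689 genes rose in tumours and 112 in livers.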
